A study of Mus musculus with 9 samples.

Results

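Suppressors of cytokine signalling (Socs1, Socs2, Socs3 and Cish), protein tyrosine phosphatases (Ptpn1, Ptpn2, Ptpn6 and Ptpn11) and the STAT inhibitor Pias1 limit signalling through JAK kinases and STAT transcription factors. These 9 genes were chosen for that role, and all 9 were found in a RefSeq gene table of GRCm38. Every ATAC-seq peak overlapping a gene body or lying within 20 kb of it was taken from the full lists of 9 libraries, with no filter on low values. The 158 peaks merged into 29 regions, out of 32649 regions in all, and each of the 9 genes had at least 1.

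ATAC-seq marks open chromatin by the cuts of a transposase. All libraries came from cells of the mouse melanoma line B16 or its derivative, injected into mice and sorted from tumours taken on day 15, with 3 libraries in each group. Res499 is a subline of B16 in which checkpoint blockade therapy fails, and it received no treatment. B16_IFNg is B16 exposed long-term to interferon gamma ahead of injection, for 2 weeks in replicates 1 and 2 and for 3 weeks in replicate 3. B16_untreated is B16 with no treatment. The interferon was thus given in advance and not during growth in the mouse. The sources used here do not give the mouse strain, the sorting markers or whether each replicate came from its own mouse. Every p-value below thus judges a difference between groups against library-to-library spread, which may be technical.

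When interferon gamma binds its receptor, the receptor-bound JAK kinases phosphorylate STAT proteins, which enter the nucleus and switch on target genes. Several of those targets are brakes: SOCS proteins bind phosphorylated receptors or the JAKs themselves and mark them for degradation, while phosphatases remove the phosphates and PIAS proteins restrain STATs in the nucleus. STAT dimers bind GAS sequences and the interferon regulatory factors bind ISRE sequences. Melanoma cells respond to interferon gamma by this route, and loss of brakes such as Ptpn2 or Socs1 is known to make tumour cells more sensitive to it.

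The promoters below show where the open regions of 4 genes lay. Socs1 and Socs3 are shown because they held the searched STAT or interferon motifs. Ptpn11 and Pias1 are shown because the rank of their start region was nearer the top of the lists in all B16_IFNg or all Res499 libraries than in any B16_untreated library. Each is the 250 bases before the RefSeq start (GRCm38.p6), 5′ to 3′ on the gene's strand, and all 250 bases lay inside the open region as merged over the 9 libraries, although the peak of a single library was often shorter and covered only some of them or, for Socs1 in Res499 replicate 3, none. Capitals mark matches to GAS motifs (TTCNNNGAA, or TTC and GAA with 4 bases between) and ISRE-like motifs (GAAA and GAAA with 2 or 3 bases between), searched on both strands.
Socs1, chr16:10785537-10785786, minus strand: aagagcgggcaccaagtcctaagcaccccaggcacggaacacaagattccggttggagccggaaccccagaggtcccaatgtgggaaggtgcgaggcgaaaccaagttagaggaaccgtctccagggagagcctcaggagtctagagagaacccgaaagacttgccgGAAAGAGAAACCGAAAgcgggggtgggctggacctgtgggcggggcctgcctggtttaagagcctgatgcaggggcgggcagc
Socs3, chr11:117969367-117969616, minus strand: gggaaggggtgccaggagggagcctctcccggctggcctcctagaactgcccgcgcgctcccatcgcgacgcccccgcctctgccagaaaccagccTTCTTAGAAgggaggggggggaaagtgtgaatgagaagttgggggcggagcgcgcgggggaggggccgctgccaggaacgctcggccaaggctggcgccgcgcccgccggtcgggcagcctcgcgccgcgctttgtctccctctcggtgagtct
Ptpn11, chr5:121191398-121191647, minus strand: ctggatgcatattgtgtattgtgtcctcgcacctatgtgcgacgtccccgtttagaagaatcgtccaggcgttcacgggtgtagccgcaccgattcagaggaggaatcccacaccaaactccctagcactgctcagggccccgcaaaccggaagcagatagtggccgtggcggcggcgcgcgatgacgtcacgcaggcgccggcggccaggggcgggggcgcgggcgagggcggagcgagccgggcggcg
Pias1, chr9:62980880-62981129, minus strand: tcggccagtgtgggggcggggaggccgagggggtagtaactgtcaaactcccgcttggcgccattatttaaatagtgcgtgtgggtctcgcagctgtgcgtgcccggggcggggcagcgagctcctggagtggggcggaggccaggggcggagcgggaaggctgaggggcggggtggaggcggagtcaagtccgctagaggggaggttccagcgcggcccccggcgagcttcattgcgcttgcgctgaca

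Of the 9 genes, 7 had a promoter in the RefSeq table. The Socs1 promoter held 2 overlapping ISRE-like matches, GAAAGAGAAA from position -83 and GAAACCGAAA from position -77 before the start. The form with 2 bases between occurred in 2.98% of the 32851 promoters of the same 250 bases, and Socs1 was the 1 member with it. The Socs3 promoter held TTCTTAGAA from position -154, and TTCNNNGAA occurred in 7.02% of all promoters and in 1 of the 7 members searched. The GAS form with 4 bases between (5.85% of promoters) and the ISRE-like form with 3 (2.38%) were in none of the 7. These are matches of letters in a short window and say nothing about binding. GC content was 61.2% in the Socs1 promoter, 71.6% in Socs3, 66.8% in Ptpn11 and 68.8% in Pias1.

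The brake genes were open at their starts in all 3 groups. Of the 7 members with a start in the promoter table, 6 had a region within 1 kb of it in every library, namely Socs1, Socs3, Cish, Ptpn1, Ptpn11 and Pias1. Among 17492 coding genes, 29.4% had such a region in every library. Ptpn6, a phosphatase best known from blood cells, had none in any library. Socs2 and Ptpn2 had no strand in the tables used here, and each had a region at 1 annotated end. In all, 8 regions lay at a start or annotated end of a member, 6 at an end of a neighbouring coding gene, 6 inside a gene body and 9 in the flanks.

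**Figure D1:**
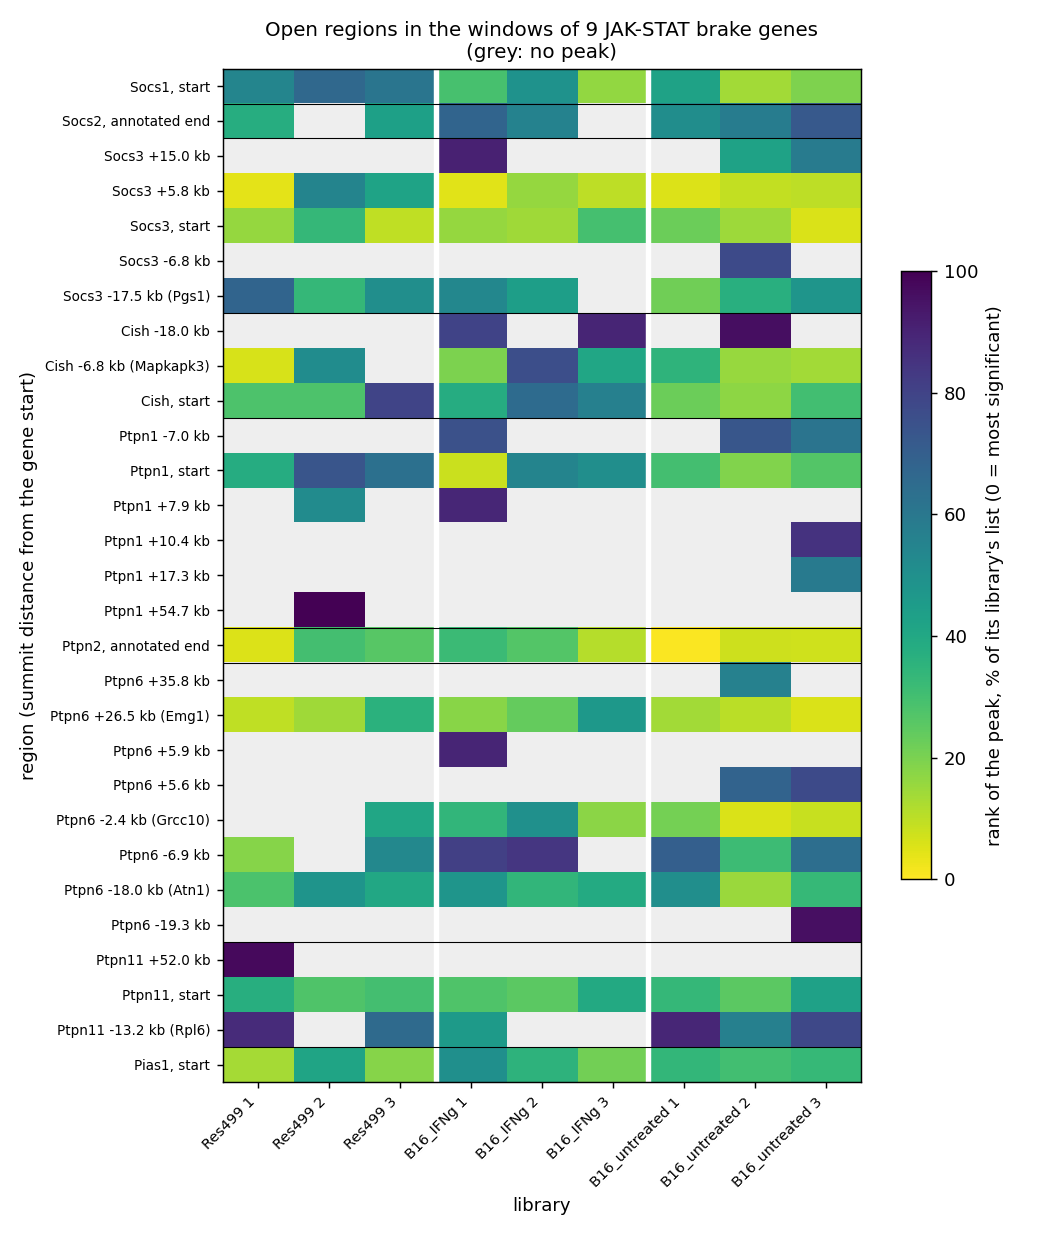
Rank of the peak in each of 29 regions (rows, named by gene and distance of the summit from the gene start, with the neighbouring gene in brackets) in 9 libraries (columns), as a percent of the library's list, with grey where there was no peak. Rows at gene starts are filled across all 9 libraries except for Socs2, whereas most rows inside gene bodies and flanks are filled in 1 to 3 libraries.

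List lengths differed between the libraries, and their part in the number of regions seen was not tested. The lists held 9221 to 15396 peaks in Res499, 11183 to 16240 in B16_IFNg and 15045 to 25374 in B16_untreated, and the member windows held a peak in 14 to 16, 13 to 21 and 16 to 22 regions in the same order of groups. The narrowest peak in a list, a sign of fragment length, was 162 to 185 bp wide in Res499 replicate 3, B16_IFNg replicate 3 and B16_untreated replicates 1 and 3, and 95 to 125 bp in the other 5. B16_IFNg replicate 3 is also the library with 3 weeks of interferon, so these cannot be told apart. Fold values are the authors' enrichment of a peak over its own library's background, so they describe peaks within a library. The number of fragments stacked at a summit was recovered from fold and −log10 p together, on the assumption that the fold is a pileup over background with 1 added to each and that the p is a Poisson tail. It was 7 to 66 in the member regions, which carries a counting error of 12.3% to 37.8%. Full-list ranks given below place a peak within its own list, and libraries are compared by the common rank, the rank among the 6166 regions with a peak in every library.

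The labelled cell type was checked at marker gene starts. Of 8 melanocyte markers, 4 had a start in the promoter table, and Sox10, Pmel, Mlana and Gpr143 could not be checked. Mitf and Dct were open in 9 of 9 libraries, Tyr in 7 and Tyrp1 in 5. Of 8 leukocyte markers, 6 had a start in the table, and none was open in Res499 or B16_IFNg. In B16_untreated, Coro1a was open in replicate 2, and Ptprc, Cd3e, Cd8a, Itgam and Laptm5 had no peak in any library. The 2 fibroblast and 2 endothelial markers with a start (Col1a2, Pdgfra, Kdr and Tek) had none in any library either. In such bulk samples fewer open cells and less open DNA per cell cannot be told apart.

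Socs1, the strongest brake on interferon gamma signalling among the SOCS proteins, had 1 region in its window (chr16:10785080-10786762), spanning the start, with the larger part before it. The fold was 5.1, 4.8 and 4.3 in Res499, 6.9, 5.9 and 6.8 in B16_IFNg, and 5.1, 9.6 and 6.9 in B16_untreated (replicates 1 to 3). Its rank in the full lists was 8371, 6095 and 7206 in Res499, 4737, 6449 and 1792 in B16_IFNg, and 6398, 3483 and 3863 in B16_untreated. Summits held 17, 15 and 23 fragments in Res499, 23, 15 and 29 in B16_IFNg, and 34, 42 and 46 in B16_untreated. Within their own lists, the Res499 libraries had it 54.4% to 66.1% of the way down, and its common rank in each of them was lower than in the other 6 libraries, as the values below show.

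Socs3, which blocks JAKs downstream of the gp130 receptor family, had 5 regions in its window. The start region (chr11:117968920-117970110) was among the higher-ranked ones of the members. Its fold was 7.0, 5.8 and 6.0 in Res499, 7.9, 8.5 and 5.8 in B16_IFNg, and 5.6, 9.5 and 9.7 in B16_untreated. Its rank was 2424, 3087 and 1116 in Res499, 2578, 1900 and 3305 in B16_IFNg, and 3381, 3681 and 1102 in B16_untreated. Common ranks of 1082 to 2851 in Res499, 1771 to 2966 in B16_IFNg and 1068 to 3222 in B16_untreated overlapped. Summits lay from 51 bases before to 115 bases after the RefSeq start.

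A further region lay about 5.8 kb past the Socs3 start, beyond the far end of the gene (chr11:117963190-117963962), and had a peak in 9 of 9 libraries. Its fold was 8.7, 5.2 and 4.6 in Res499, 9.5, 8.8 and 7.4 in B16_IFNg, and 7.3, 11.5 and 8.9 in B16_untreated. The rank was 638, 5068 and 4940 in Res499, 753, 2061 and 1095 in B16_IFNg, and 822, 2293 and 2035 in B16_untreated. On common ranks, Res499 replicates 2 and 3 stood at 4355 and 4116, whereas Res499 replicate 1 and the other 6 libraries stood at 607 to 2129. Of the remaining 3 Socs3 regions, 1 lay at the end of Pgs1, a lipid synthesis gene, and was seen in 8 libraries (absent from 1 of B16_IFNg). The other 2 were flank sites called in 3 libraries (1 B16_IFNg, 2 B16_untreated) and in 1 (B16_untreated replicate 2).

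Socs2, a brake on growth hormone signalling, had 1 region at an annotated end (chr10:95416480-95418100), which it shares with the end of the non-coding gene 5730420D15Rik. A peak was present in 7 libraries. The fold was 6.7 and 5.5 in Res499 replicates 1 and 3, 5.8 and 6.3 in B16_IFNg replicates 1 and 2, and 6.1, 6.4 and 5.1 in B16_untreated. Ranks were 5824 and 5071 in Res499, 11002 and 7352 in B16_IFNg, and 7680, 14765 and 14517 in B16_untreated. Its summits held 10 to 23 fragments, and of the 8 start or end regions it was the 1 not called in every library. It lacked a peak in Res499 replicate 2, the library with the shortest list, and in B16_IFNg replicate 3.

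Cish, induced by STAT5 and a brake on interleukin signalling, had a start region (chr9:107296312-107297010) in every library. The fold was 7.0, 6.7 and 4.4 in Res499, 7.0, 5.7 and 5.7 in B16_IFNg, and 7.2, 11.3 and 7.1 in B16_untreated. Ranks were 4280, 2583 and 9345 in Res499, 6206, 8560 and 6328 in B16_IFNg, and 3360, 4315 and 6079 in B16_untreated. On common ranks all 3 B16_IFNg libraries had a lower place than any B16_untreated library, and the Res499 libraries spread from 2432 to 5916. Another region lay at the end of the kinase gene Mapkapk3 (2 Res499, 3 B16_IFNg and 3 B16_untreated libraries). A flank site about 18.0 kb before the start had a peak in 3 libraries, 2 of B16_IFNg and 1 of B16_untreated.

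**Figure D2:**
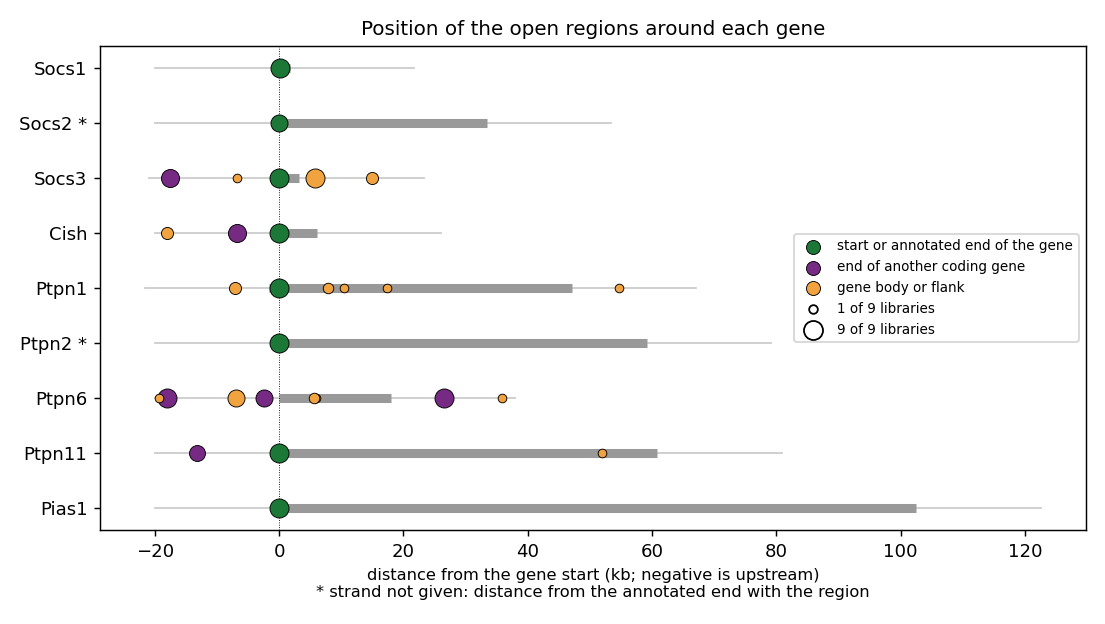
Distance of each open region from the start of its gene, in kb, with the gene body as a thick bar and the 20 kb flanks as a thin line. The dot grows with the number of libraries that have a peak, and the largest dots sit at gene starts or annotated ends, at the site 5.8 kb past the Socs3 start and at the ends of neighbouring genes.

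Ptpn2, a phosphatase that dephosphorylates Jak1, had a single region, at an annotated end (chr18:67723983-67724807), with the best mean rank of the member start and end regions. Its fold was 10.2, 6.7 and 6.2 in Res499, 7.8, 8.1 and 8.3 in B16_IFNg, and 11.3, 13.9 and 11.3 in B16_untreated. Ranks were 821, 2760 and 3048 in Res499, 5171, 3519 and 1232 in B16_IFNg, and 94, 1927 and 1479 in B16_untreated. B16_untreated replicate 1 had it among its strongest peaks, at 0.625% of the list with 62 fragments at the summit. Over the 9 libraries, the gene-start regions whose rank scores were most like it were those of Lmbr1 (Pearson r = 0.935), Wtap (r = 0.933) and Fam120a (r = 0.929). They were the 3 highest at coding gene starts when 6165 other regions were searched, and regions away from such starts were passed over. The libraries differ in list length and in fragment length, and a part of these in such values was not tested. With so many regions searched a high r is no finding.

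Ptpn1, a phosphatase that acts on Jak2 and Tyk2, had 6 regions, and 1 of them, at the start (chr2:167931819-167932651), was open in every library. There the fold was 6.5, 5.2 and 4.8 in Res499, 10.5, 6.0 and 5.5 in B16_IFNg, and 7.1, 11 and 8.0 in B16_untreated. Ranks were 5885, 6781 and 7428 in Res499, 1305, 7249 and 5647 in B16_IFNg, and 4471, 4852 and 5371 in B16_untreated. On common ranks every Res499 library placed it lower than every B16_untreated library, while B16_IFNg replicate 1 stood apart at 1253, against 5189 and 4530 in the other 2. The other 5 regions were called in 1 to 3 libraries. They comprised 3 in the gene body and 2 in the flanks, and the site about 7.0 kb before the start had a peak in 0 Res499, 1 B16_IFNg and 2 B16_untreated libraries.

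Ptpn11, a phosphatase that also promotes Ras signalling, had a start region (chr5:121190912-121191735) with a fold of 6.5, 6.7 and 6.0 in Res499, 7.6, 8.5 and 6.4 in B16_IFNg, and 6.8, 10.8 and 7.5 in B16_untreated. Ranks were 5732, 2544 and 3496 in Res499, 4503, 3343 and 4383 in B16_IFNg, and 5045, 6439 and 8634 in B16_untreated. On common ranks the 3 B16_IFNg libraries were above the 3 B16_untreated ones, and Res499 replicates 2 and 3 were above these too. The end of the ribosomal protein gene Rpl6, 13 kb away, was open in 2 Res499, 1 B16_IFNg and 3 B16_untreated libraries. A site deep in the gene body was called in Res499 replicate 1 alone, with 8 fragments at the summit.

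Pias1, a SUMO ligase, is the longest member and had 1 region, at its start (chr9:62980287-62981243). Its fold was 9.1, 6.4 and 7.1 in Res499, 6.5, 7.5 and 7.6 in B16_IFNg, and 7.0, 9.8 and 8.1 in B16_untreated. Ranks were 2093, 3830 and 2154 in Res499, 8123, 4643 and 2393 in B16_IFNg, and 5082, 7715 and 6682 in B16_untreated. On common ranks all 3 Res499 libraries placed it above all 3 B16_untreated libraries, and the B16_IFNg libraries spread across both.

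Ptpn6 had 8 regions in its window and none at its own start. The nearest to that start lay 1639 bp away at the end of Grcc10 (chr6:124740348-124741619), with a peak in 1 Res499, 3 B16_IFNg and 3 B16_untreated libraries. The fold there was 4.1 in Res499 replicate 3, 6.0, 5.2 and 5.7 in B16_IFNg, and 5.1, 10.2 and 7.1 in B16_untreated. Its rank was 4783 in that Res499 library, 5580, 6571 and 1933 in B16_IFNg, and 3118, 1473 and 1721 in B16_untreated. Res499 replicates 1 and 2 were the 2 libraries without the peak. Res499 replicate 2 has the shortest list. The list of Res499 replicate 1 holds 15396 peaks, and that of B16_untreated replicate 1, which has the peak at rank 3118, holds 15045. Whether list length plays a part in the missing peaks was not tested.

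Elsewhere in the Ptpn6 window, the shared end of Emg1 and Phb2 (chr6:124711756-124712695) and the end of Atn1 (chr6:124756016-124757615) were open in 9 of 9 libraries. A flank site about 6.9 kb before the Ptpn6 start (chr6:124745471-124745977) had a peak in 2 Res499, 2 B16_IFNg and 3 B16_untreated libraries. Inside the gene body, 1 site was called in B16_IFNg replicate 1 and another in B16_untreated replicates 2 and 3, with 10 to 17 fragments at the summit. These are neighbouring genes and sites, and nothing in the lists ties them to Ptpn6.

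Changes between groups were first sought as presence and absence. Since a longer list holds more peaks, each library was cut to its 9214 most significant peaks, the length of the shortest list on chromosomes 1 to 19, X and Y. No member region was gained (a peak in every library of the first group and in none of the second) or lost (the opposite). This was 0 of 18 regions for Res499 against B16_untreated, where 0.596% of all regions were gained and 0.984% lost. It was 0 of 16 for B16_IFNg against B16_untreated (0.398% gained and 0.611% lost over all regions) and 0 of 18 for Res499 against B16_IFNg (0.399% and 0.557%). For B16_IFNg and Res499 together against B16_untreated it was 0 of 18 (0.0447% and 0.204%). With shares this low, the zeros over so few regions do not set the members apart. In the full lists, too, no member region was gained or lost. Over all regions, 0.0263% were gained and 3.97% lost there for Res499 against B16_untreated, 0.0164% and 2.52% for B16_IFNg against B16_untreated, 0.147% and 0.611% for Res499 against B16_IFNg, and 0.00306% and 1.26% for the 2 groups together. In the lists of 9214 peaks the start or end regions of Socs1, Socs3, Ptpn1, Ptpn2, Ptpn11 and Pias1 were called in 9 libraries, that of Cish in 8 and that of Socs2 in 4.

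Looser and stricter rules moved some members. In lists of 4607 peaks, the Pias1 start was gained and the Grcc10 end near Ptpn6 lost in Res499 against B16_untreated (0.917% of all regions gained and 0.758% lost), and the Ptpn11 start was gained in B16_IFNg against B16_untreated (0.538% and 0.675%). No member was called there for Res499 against B16_IFNg (0.627% each way) or for the 2 groups together (0.0559% and 0.112%). Back at 9214 peaks, but with 1 missing or extra library allowed, Res499 against B16_untreated gained the Socs2 end, the Pgs1 end near Socs3 and the site 6.9 kb before Ptpn6, and lost the Grcc10 end, against 8.43% of all regions gained and 11.2% lost. Against B16_IFNg, Res499 gained the Socs2 end and the site before Ptpn6 and lost the Grcc10 end (8.13% and 9.42%). B16_IFNg against B16_untreated gained the Pgs1 end (8.44% and 9.92%), and the 2 groups together gained or lost none (2.03% and 3.68%).

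Ranks were then compared over 6166 regions with a peak in every library, which included 10 member regions, 10 of 29 against 18.9% of all regions. Within each library the 6166 regions were ranked by −log10 p, the ranks were turned into normal scores, and limma tested the differences with Benjamini-Hochberg adjustment over all 6166. A positive difference means a place nearer the top in the first group. The test covers regions present everywhere, so a site missing from a library, such as that of Socs2, was not tested.

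**Figure D3:**
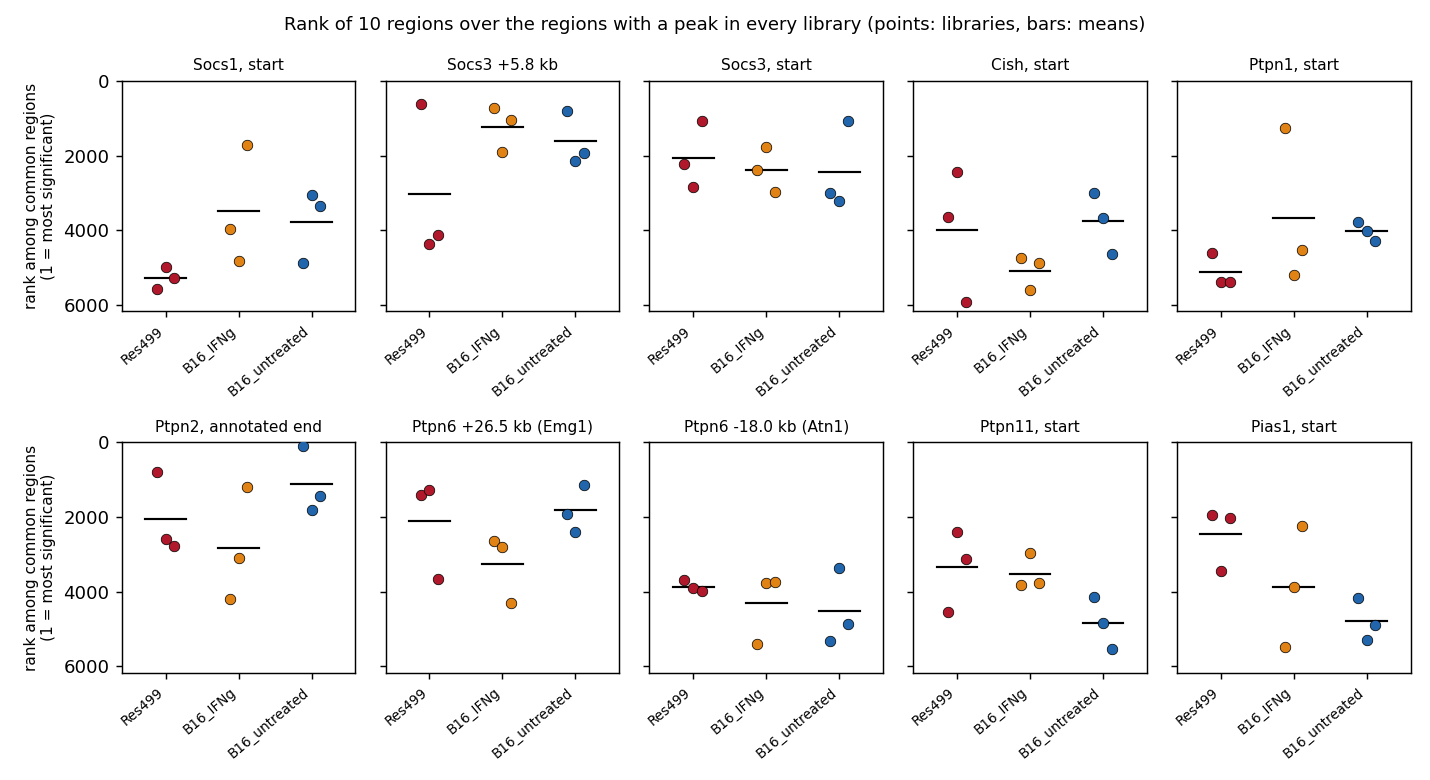
Rank of 10 member regions among the 6166 common regions (y axis, 1 at the top being the most significant) for each library, with bars for group means. The Res499 points lie below both other groups for Socs1 and above B16_untreated for Pias1, and for the Socs3 start all groups overlap.

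No region passed an adjusted p of 0.05 by limma in any of the 4 comparisons, neither among the 10 member regions nor among the 6166 (0.0%). At an unadjusted p under 0.05 there was 1 of 10 member regions for Res499 against B16_untreated, where 435 of 6166 regions (7.05%) reached it. There were 0 of 10 for B16_IFNg against B16_untreated (258 regions, 4.18%), 0 for Res499 against B16_IFNg (375 regions, 6.08%) and 0 for the 2 groups together (328 regions, 5.32%). Differences of the member regions ran from -0.78 to 1.05 for Res499 against B16_untreated, from -1.03 to 0.66 for B16_IFNg against B16_untreated and from -0.90 to 0.66 for Res499 against B16_IFNg. Their standard errors were 0.43 to 0.52, and none of these differences passed the adjusted test. Differences of this size could go uncalled even if real, so the lack of calls does not show that nothing changed.

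The member region with the lowest p was the Pias1 start in Res499 against B16_untreated. Its common rank was 1939, 3430 and 2011 in Res499, against 4176, 5300 and 4894 in B16_untreated. The score difference was 1.05 ± 0.46 (SE, n = 3 each, limma, adjusted p = 0.691), and it did not pass the correction. B16_IFNg spread across both, at 5478, 3871 and 2229, with replicate 1 below every B16_untreated library and replicate 3 within the Res499 range.

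Socs1 showed the opposite order. In Res499 its common rank was 5579, 4991 and 5286, against 3953, 4813 and 1712 in B16_IFNg and 4867, 3065 and 3359 in B16_untreated. By the best peak of each library, with summits spread over the region, every Res499 library was below all 6 others. The difference was -0.78 ± 0.46 against B16_untreated (limma, adjusted p = 0.775) and -0.90 ± 0.46 against B16_IFNg (adjusted p = 0.785). It was -0.44 against B16_untreated with peaks ordered by fold, and -0.51 against B16_IFNg without B16_IFNg replicate 3. The Ptpn1 start was likewise below all B16_untreated libraries in Res499, at 4612, 5384 and 5371, against 3767, 4006 and 4287, with a difference of -0.59 ± 0.48 (limma, adjusted p = 0.871). None of these differences passed the test.

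For B16_IFNg against B16_untreated, the Ptpn11 start ranked at 3815, 2962 and 3757 in B16_IFNg, against 4151, 4830 and 5538 in B16_untreated. The difference was 0.66 ± 0.43 (limma, adjusted p = 0.997), and it was 0.29 with peaks ordered by fold. Res499, with 4539, 2398 and 3110, overlapped B16_untreated at this start. The Cish start went the other way, at 4744, 5605 and 4883 in B16_IFNg, against 2986, 3670 and 4624 in B16_untreated (difference -0.67 ± 0.50, limma, adjusted p = 0.997). The shared end of Emg1 and Phb2 near Ptpn6 was also lower, at 2638, 2803 and 4294 in B16_IFNg, against 1916, 2412 and 1134 in B16_untreated (difference -0.63 ± 0.45, limma, adjusted p = 0.997, and -0.40 without B16_IFNg replicate 3).

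The Ptpn2 end region had the most negative difference of the members in B16_IFNg against B16_untreated, though its libraries overlapped. The common rank was 4198, 3094 and 1187 in B16_IFNg, against 86, 1803 and 1422 in B16_untreated. The difference was -1.03 ± 0.52 (limma, adjusted p = 0.997), and it was -0.51 without B16_untreated replicate 1. In Res499 the ranks were 780, 2586 and 2767, with a difference from B16_untreated of -0.67 ± 0.52 (limma, adjusted p = 0.862).

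**Figure D4:**
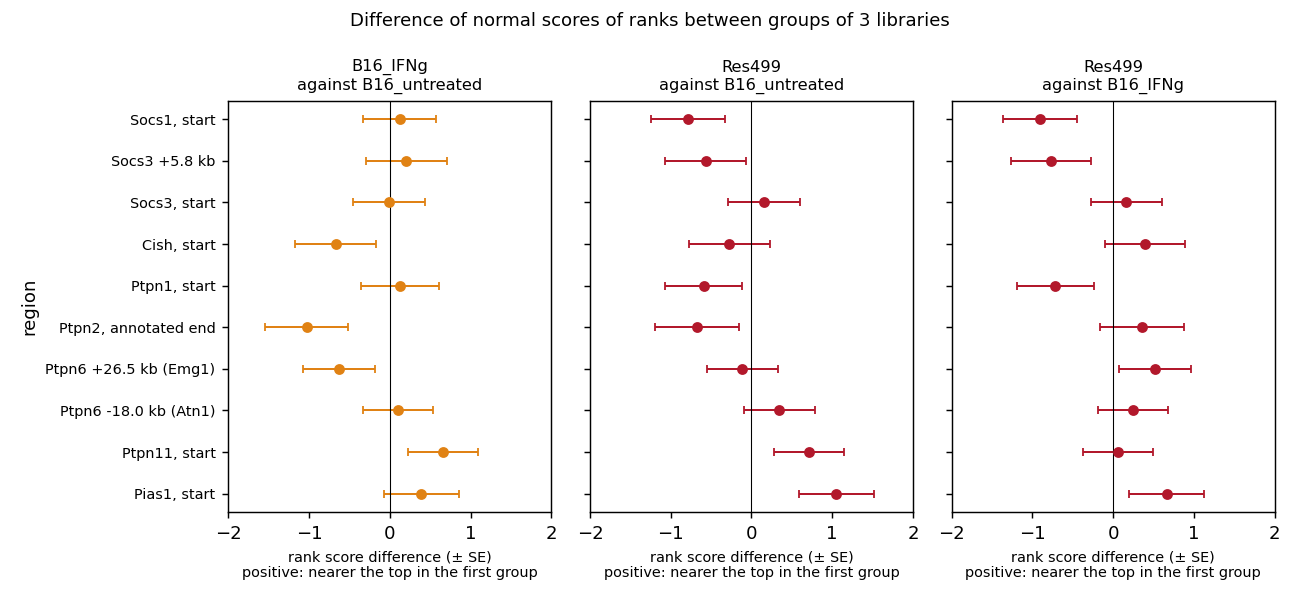
Difference of rank scores with its standard error for 10 member regions (rows) in 3 comparisons of 3 against 3 libraries. The values run from -1.03 for Ptpn2 in B16_IFNg against B16_untreated to 1.05 for Pias1 in Res499 against B16_untreated.

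Ranks that did not overlap between groups were counted against all common regions. For Res499 against B16_untreated, 1 of 10 member regions (Pias1) was nearer the top in Res499, against 6.41% of all common regions, and 2 (Socs1 and Ptpn1) were nearer the bottom, against 5.87%. For B16_IFNg against B16_untreated there was 1 at the top (Ptpn11, 5.64% of all) and 2 at the bottom (Cish and the Emg1 end, 4.93%). For Res499 against B16_IFNg there were 0 at the top (5.35%) and 1 at the bottom (Socs1, 5.43%). With the 2 groups together against B16_untreated there was no such member region (1.46% and 1.43% of all). With 10 regions these counts are too small to set the members apart from the background. Comparisons that share the same B16_untreated libraries are not independent of each other.

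Other genes of the pathway were also open at their starts. Of 12 further brakes, 5 had a start in the table, and 3 of them (Socs4, Pias3 and Sh2b3) were open in every library, Dusp3 in 7 libraries and Isg15 in none. Of 17 receptors, kinases and transcription factors, 16 had a start, and 8 were open in every library (Ifnar1, Jak1, Jak2, Tyk2, Stat2, Stat3, Stat6 and Irf1), while Stat4 was open in none. These counts stand beside 6 of 7 brake genes and 29.4% of coding genes. Ifngr1, the ligand-binding chain of the interferon gamma receptor, was open in 8 libraries, and Ifngr2 in 7.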

How the data were processed

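MACS2, Bowtie2 2.2.4, cutadapt 1.9 and CASAVA are named in the submitters' processing notes, with GRCm38 (mm10) as the build. The MACS2 settings and any shift for the transposase are not given in the sources used here. The 9 deposited files are peak lists, each called on 1 library and not pooled. They hold a score, the fold over local background (a ratio), the −log10 p, the −log10 q and the distance from the start of the peak to its summit, all as deposited by the authors. The lists carry no read counts.

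Peaks were ranked by −log10 p within their full list. Overlapping or touching peaks were merged into regions over all libraries. Whole fragment numbers at summits were recovered from the fold and −log10 p for all 158 member peaks, and for 98.0% to 100% of 1000 peaks drawn per library (tolerance 0.01 in −log10 p). Counting errors cover counting only. Gene bodies and promoters came from RefSeq tables of GRCm38.p6, which matched 9 and 7 of the 9 members. The rank test used limma 3.58.1 in R 4.3.3 with all 9 libraries in 1 fit. On simulated data it missed shifts about as large as the largest member differences. A called region has an adjusted p under 0.05. Values are given for every start region, for regions whose ranks do not overlap between groups, and for the 3 most similar gene-start regions of the best-ranked member. The Ptpn2 differences, the Socs3 site and the site at Grcc10 were chosen after their values were seen. The members and lists were chosen with earlier results of these data known. Alternatives changed the ordering column, list length, merging distance, rule, covariates, window and libraries. The replicate number as a block was 1 of them, although same-numbered libraries did not vary together, with correlations of -0.021 to 0.1 over 9 pairs.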

Additional observations from a re-analysis of the deposited data

How the results depend on the processing

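The rank test called 0 member regions in each of the 4 comparisons under every alternative run, the replicate block and the fragment length class included. Differences of the size seen here could be missed in every run, so these counts do not show a lack of change. With the replicate block the count was 0 in each comparison, as it was without it, and the replicate numbers do not pair the libraries. The score differences of Pias1, Socs1, Ptpn1, Ptpn11, Cish, Ptpn2 and the Emg1 end kept their direction in all 87 alternative fits. Apart from Ptpn2, these regions were picked because their ranks did not overlap between the groups. Leaving out a library could thus hardly reverse them, and Ptpn2 was picked after its values were seen. The kept direction is therefore no added support. For Pias1 in Res499 against B16_untreated the range was 0.90 to 1.35 (limma, adjusted p = 0.575 to 0.997). For Socs1 it was -1.03 to -0.44 against B16_untreated and -1.18 to -0.51 against B16_IFNg (adjusted p from 0.612 and 0.711). In B16_IFNg against B16_untreated the ranges were -1.38 to -0.51 for Ptpn2, 0.29 to 0.95 for Ptpn11, -0.86 to -0.48 for Cish and -0.77 to -0.40 for the Emg1 end. That of Ptpn1 in Res499 against B16_untreated was -0.74 to -0.50. The Cish start could not be fitted in equal-length lists, where 1 Res499 library has no peak.

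Gained and lost member regions numbered 0 in each comparison by the rule as first stated. With lists of 4607 peaks there was 1 for B16_IFNg against B16_untreated (Ptpn11, gained) and 2 for Res499 against B16_untreated (Pias1 gained, the Grcc10 end lost). Allowing 1 missing or extra library gave 4 for Res499 against B16_untreated, 1 for B16_IFNg against B16_untreated and 3 for Res499 against B16_IFNg, where 8.13% to 11.2% of all regions pass in each direction. Leaving out each library gave 0 to 1 for Res499 against B16_untreated and against B16_IFNg. These were the Grcc10 end, lost in both without Res499 replicate 3 (2.13% of all regions lost against B16_untreated and 1.22% against B16_IFNg), and the site 6.9 kb before Ptpn6, gained against B16_IFNg without Res499 replicate 2 (1.24% of all gained). A window of 5 kb held 16 regions in place of 29. Counts of ranks that do not overlap, whose alternatives were chosen after seeing the data, were 3 to 6 without each library for Res499 against B16_untreated (18.0% to 26.5% of all common regions) and 3 to 5 for B16_IFNg against B16_untreated (17.5% to 24.0%). They were 1 to 3 for Res499 against B16_IFNg (18.8% to 21.5%) and 0 to 2 for both groups together (3.69% to 9.27%), of 10 or 11 member regions, since fewer libraries overlap less. The 6 came without Res499 replicate 1 (22.4% of all), and the 5 and the 2 without B16_IFNg replicate 1 (20.1% and 4.35%). For Res499 against B16_IFNg every omission but that of B16_IFNg replicate 1 gave 2 or 3. In equal-length lists the count for Res499 against B16_IFNg was 0, in place of 1. Depth limits all of this, with 7 to 66 fragments at a summit.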
